A study of Arabidopsis thaliana with 24 samples.

Results

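The ferric reductase oxidase (FRO) family of Arabidopsis thaliana, FRO1 to FRO8, was followed across roots grown with and without iron. The members were chosen by name, and all 8 were found among the 33602 genes of the deposited table. Root RNA of seedlings aged 7 days was sequenced as 24 samples in 8 groups of 3. The groups PPL, SHR23, PEP45, WER13 and WER65 are lines with a labelled GFP localization in the root. The study's title speaks of mislocalization of the bHLH transcription factor POPEYE (PYE). Their GFP localization is labelled V-EN-C-EP, V-EN, C-EN-V, EP-C and EP in the order of the lines just given. The PPL label holds all the codes of the other lines, so PPL is not read here as limited to chosen root cells. The group pye-1 is a mutant of PYE, a regulator of the root response to iron deficiency; its sample records write PYE as the genotype. These 6 groups and iron-deficient wild type had 4 days with iron and then 3 days on FeEDTA-free medium with 300 µM of the iron chelator ferrozine. Iron-sufficient wild type stayed on 0.1 mM FeEDTA throughout. The SHR23 samples are numbered 4 to 6, unlike those of the other groups, and what this numbering means is not stated. A deposited sheet on promoters that drive PYE lists SHR, SCR, PEP and WER, placed in vasculature, endodermis, cortex and epidermis; it does not say which line carries which promoter, though SHR23, PEP45 and WER13 or WER65 share names with 3 of them. One of its columns is headed pye-1/PYE, and the background of the lines and the wild-type accession are not stated otherwise.

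FRO proteins are membrane enzymes that pass electrons from NADPH inside the cell to ferric iron or cupric copper on the other side of a membrane. Roots of Arabidopsis take up iron in the ferrous form, so the reductase at the root surface, FRO2, works beside the transporter IRT1. FRO3 is assigned to mitochondria and is a known direct target of PYE, FRO4 and FRO5 reduce copper at the root surface, FRO6 lies in the plasma membrane of leaf cells, and FRO7 serves the chloroplast.

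The genes sit on 2 chromosomes, and 6 of them are arranged as neighbouring pairs on the same strand. In the TAIR10.1 annotation FRO2 (AT1G01580, chr1:208995-213082, plus strand) is followed 1067 bases later by FRO1 (AT1G01590, chr1:214150-217734, plus strand). FRO3 (AT1G23020, chr1:8149868-8153796, minus strand) stands alone. FRO4 (AT5G23980, chr5:8097978-8101330) and FRO5 (AT5G23990, chr5:8105461-8108642) lie 4130 bases apart on the minus strand. FRO6 (AT5G49730, chr5:20201037-20204595) and FRO7 (AT5G49740, chr5:20205302-20208777) lie 706 bases apart on the minus strand. FRO8 (AT5G50160, chr5:20415764-20418847, plus strand) also stands alone. The longest annotated transcript of FRO8 has 7 exons, and those of the other members have 8.

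The coding sequences were most alike within pairs. FRO6 and FRO7 were 93.9% identical over aligned bases, and FRO4 and FRO5 were 92.6% identical. FRO1 was closer to FRO3 (86.1%) than to its neighbour FRO2 (75.0%). Exact stretches of 50 bases were shared between transcripts of FRO4 and FRO5 (5.11% of the windows in FRO4 and 5.3% in FRO5) and between FRO6 and FRO7 (14% of the windows in each). How reads from such stretches were counted is not stated in these sources, so levels within these pairs are uncertain to that extent.

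The bases just upstream are shown for the pair FRO4 and FRO5, whose levels differed in direction between wild type without and with iron, and for the pair FRO6 and FRO7, which was barely detected. Each is 250 bases of TAIR10.1 ending at the base before the annotated start, 5′ to 3′ on the minus strand of chromosome 5; capitals mark the longest run of letters that the pair shares. FRO4 spans chr5:8101331-8101580 and FRO5 chr5:8108643-8108892. FRO6 spans chr5:20204596-20204845 and FRO7 chr5:20208778-20209027.
FRO4: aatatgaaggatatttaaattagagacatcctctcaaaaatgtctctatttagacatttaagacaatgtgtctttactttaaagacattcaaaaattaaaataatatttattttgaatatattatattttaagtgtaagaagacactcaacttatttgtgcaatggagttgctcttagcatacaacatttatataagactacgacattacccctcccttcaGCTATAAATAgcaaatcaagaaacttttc
FRO5: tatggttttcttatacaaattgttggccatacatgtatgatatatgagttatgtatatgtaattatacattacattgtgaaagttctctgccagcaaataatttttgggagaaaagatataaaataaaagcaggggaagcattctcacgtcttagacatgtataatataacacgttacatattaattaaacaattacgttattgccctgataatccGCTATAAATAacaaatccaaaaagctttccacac
FRO6: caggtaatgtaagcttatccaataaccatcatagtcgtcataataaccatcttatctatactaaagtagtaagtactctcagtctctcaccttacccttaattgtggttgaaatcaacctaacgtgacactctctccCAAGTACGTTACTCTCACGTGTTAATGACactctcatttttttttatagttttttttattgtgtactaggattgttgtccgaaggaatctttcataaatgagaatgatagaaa
FRO7: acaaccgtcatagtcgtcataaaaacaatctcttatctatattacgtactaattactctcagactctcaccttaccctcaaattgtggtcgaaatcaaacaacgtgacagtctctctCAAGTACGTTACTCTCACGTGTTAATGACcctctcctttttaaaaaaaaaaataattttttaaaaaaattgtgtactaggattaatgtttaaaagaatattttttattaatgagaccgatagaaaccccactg

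The run shared by FRO4 and FRO5 was 10 bases long, although their coding sequences were nearly as alike as those of FRO6 and FRO7, which shared 29 bases upstream. Over the 27 pairs of members other than FRO6 and FRO7 the longest shared run was 6 to 13 bases, with a median of 9. The E-box variant CACGTG (the G-box) was searched in the 500 bases upstream of each gene, where it reads the same on both strands; within the family it was found once each in FRO6 and FRO7, inside that 29-base run, and in 9.35% of 27443 protein-coding genes. The wider E-box CANNTG, which includes CACGTG, was found in FRO4, FRO5, FRO6, FRO7 and FRO8 and in 80.1% of all genes. None of FRO1, FRO2 and FRO3 had it in that window.

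The upstream bases of FRO2 and FRO3, the members highest without iron, are shown with GTAC in capitals. FRO2 is given on the plus strand (chr1:208745-208994) and FRO3 on the minus strand (chr1:8153797-8154046).
FRO2: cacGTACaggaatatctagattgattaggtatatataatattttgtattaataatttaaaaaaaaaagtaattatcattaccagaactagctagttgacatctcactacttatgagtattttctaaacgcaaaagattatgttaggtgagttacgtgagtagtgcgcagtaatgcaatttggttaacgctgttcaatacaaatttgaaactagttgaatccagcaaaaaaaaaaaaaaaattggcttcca
FRO3: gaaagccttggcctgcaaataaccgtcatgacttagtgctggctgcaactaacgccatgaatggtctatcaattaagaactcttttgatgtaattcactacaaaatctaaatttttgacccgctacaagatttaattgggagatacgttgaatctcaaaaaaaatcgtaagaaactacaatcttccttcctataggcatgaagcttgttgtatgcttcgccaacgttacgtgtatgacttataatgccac

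GTAC is the core of the element read by the copper regulator SPL7. It occurred 3 times in the 500 bases upstream of each of FRO2, FRO6 and FRO7 and in none of the other members, FRO4 and FRO5 included. It was found in 57.3% of all genes.

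Levels are given as RPKM, reads scaled to gene length and to library size, of which the authors deposited 1 value per group. Low values fell on steps of whole reads from 3 libraries per group, of 14834475 to 24011366 effective reads, for 62.0% to 67.7% of the values checked in each group, so the values are read here as means of 3 libraries. For members with few reads or with long decimals the mean can be split into whole reads per library; this gave 47 of the 64 values of the family, and none for FRO2 or FRO4. Where values per library are given below, they are these reconstructed ones, and the libraries carry no replicate number. Calls rest on the authors' 7 deposited tables, which list genes with a q-value under 0.05; the smallest fold they list is 1.49 to 1.5, and 1.78 for PPL. The authors' comparison used here for PPL is labelled PYE, and a separate one is labelled pye-1. It was assigned to PPL by its directions and levels, not by its label. A member is said to rise or fall only where it is listed. In whole roots, fewer cells of a type and less RNA per cell cannot be told apart.

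The members differed widely in level. FRO2 to FRO5 passed a level of 1 RPKM in at least 1 group, and FRO1, FRO6, FRO7 and FRO8 did not. FRO2 reached 1966 RPKM and FRO3 738 RPKM, whereas FRO7 never exceeded 0.0295 RPKM. The 4 low members are therefore described by reads.

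**Figure D1:**
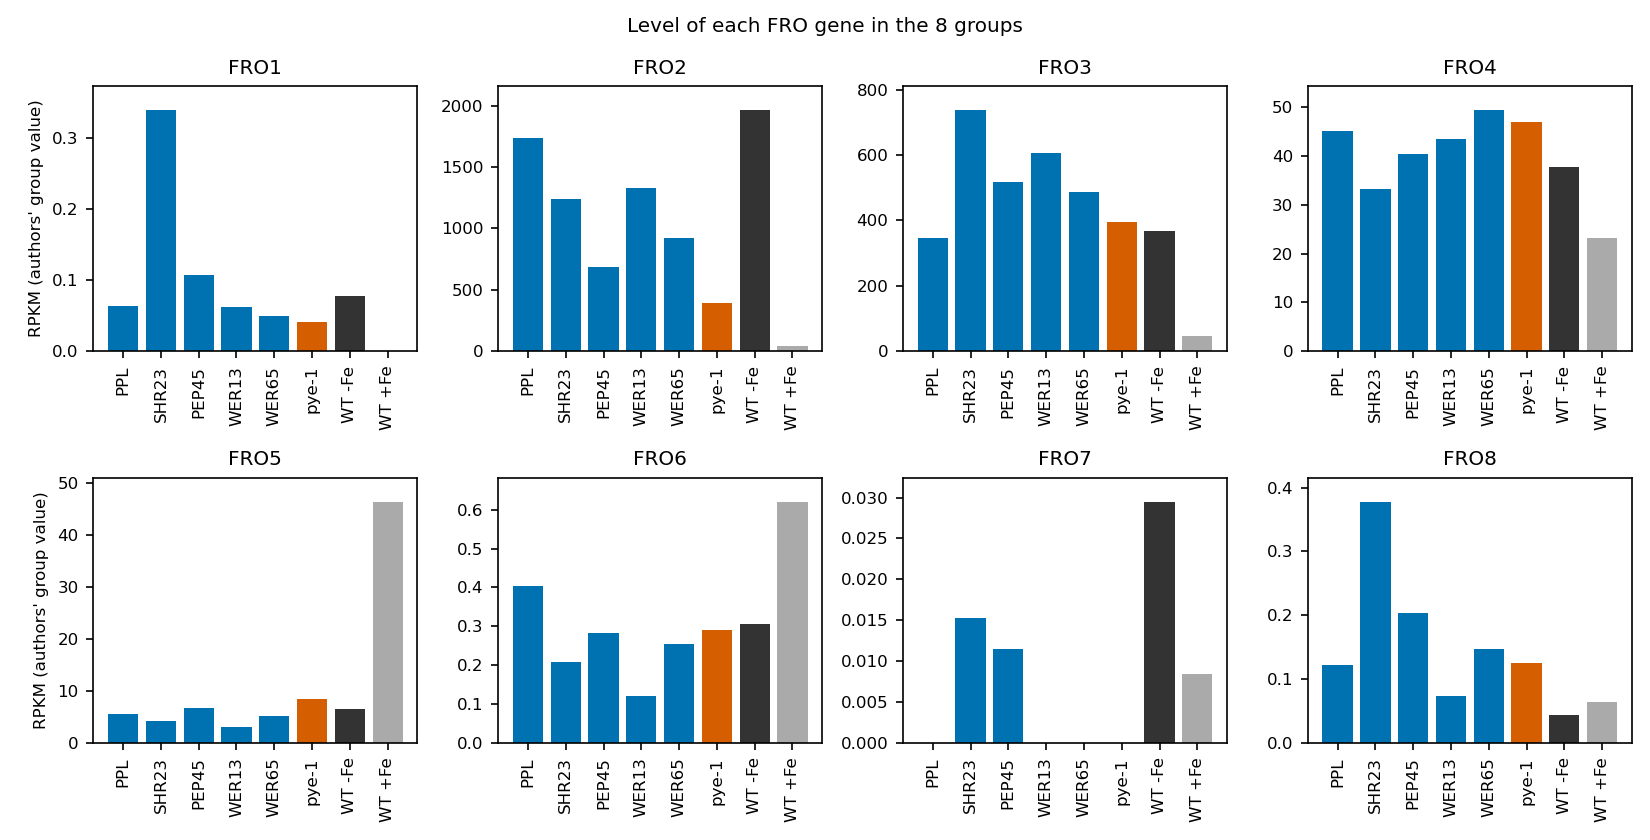
Authors' RPKM value of each FRO gene (y axis, its own linear scale in each panel) in the 5 lines, pye-1, iron-deficient wild type and iron-sufficient wild type (x axis); blue bars are lines, orange is pye-1, dark and light grey are wild type without and with iron. FRO2 and FRO3 are lowest with iron (39.6 and 44.7 RPKM), and FRO5 is highest there (46.4 RPKM).

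How the family answered 3 days without iron was read from wild type. FRO2 and FRO3 rose, FRO5 fell, and the other 5 members were not listed. FRO2 stood at 1966 RPKM without iron and 39.6 RPKM with it, a ratio of 49.6. The rise was listed with q = 0.000124 in the authors' deposited table. The 3 members listed compare with 17.9% of the 24719 genes detected in either group.

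FRO3 had 356, 367 and 379 RPKM in the 3 libraries of iron-deficient wild type, against 36.6, 40.6 and 56.8 RPKM in those of iron-sufficient wild type. The groups did not overlap. The mean was 8.22-fold higher without iron (q = 1.12e-05 in the authors' deposited table). The highest of the 3 iron-sufficient values belonged to the library of 15666210 reads, which also had the most reads of 3 iron uptake genes among the 4 that could be split there: BHLH100 (133 reads, with 42 and 85 in the other libraries), MYB10 (90, with 40 and 41) and S8H (24, with 15 and 11). MYB72 had 2 reads in it, against 2 and 3. Part of the spread of FRO3 with iron thus sat in 1 library; whether these plants differed in iron status was not tested.

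FRO5 ran the other way, at 6.45 RPKM without iron and 46.4 RPKM with it, 7.20-fold lower without iron. Its 3 iron-deficient libraries held 4.20, 5.77 and 9.38 RPKM, all far under the iron-sufficient mean, which could not be split into single libraries. The fall was listed with q = 0.000655 in the authors' deposited table. Its neighbour FRO4 had 37.7 RPKM without iron and 23.2 RPKM with it; this 1.62-fold difference was not listed, and no spread is known for it. FRO4 thus stood at 5.84 times FRO5 without iron and at 0.50 times FRO5 with it, while the summed level of the pair was 44.1 RPKM without iron and 69.6 RPKM with it.

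The low members gave few reads in wild type. FRO6 had 12, 8 and 22 reads in the iron-deficient libraries and 9, 41 and 23 in the iron-sufficient ones, so that the groups overlapped. FRO8, which is assigned to mitochondria by prediction, had 4, 2 and 0 reads without iron and 0, 3 and 4 with it. FRO1 had 2, 4 and 3 reads without iron and none in the 3 libraries with iron. A count of 0 allows up to 3 reads over the group (0.0305 RPKM); the level without iron, 0.0778 RPKM, was 2.55 times that limit, without allowing for the counting error of its own 9 reads. FRO1 was not listed. FRO7 had 4 reads in all without iron and 1 with it.

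**Figure D2:**
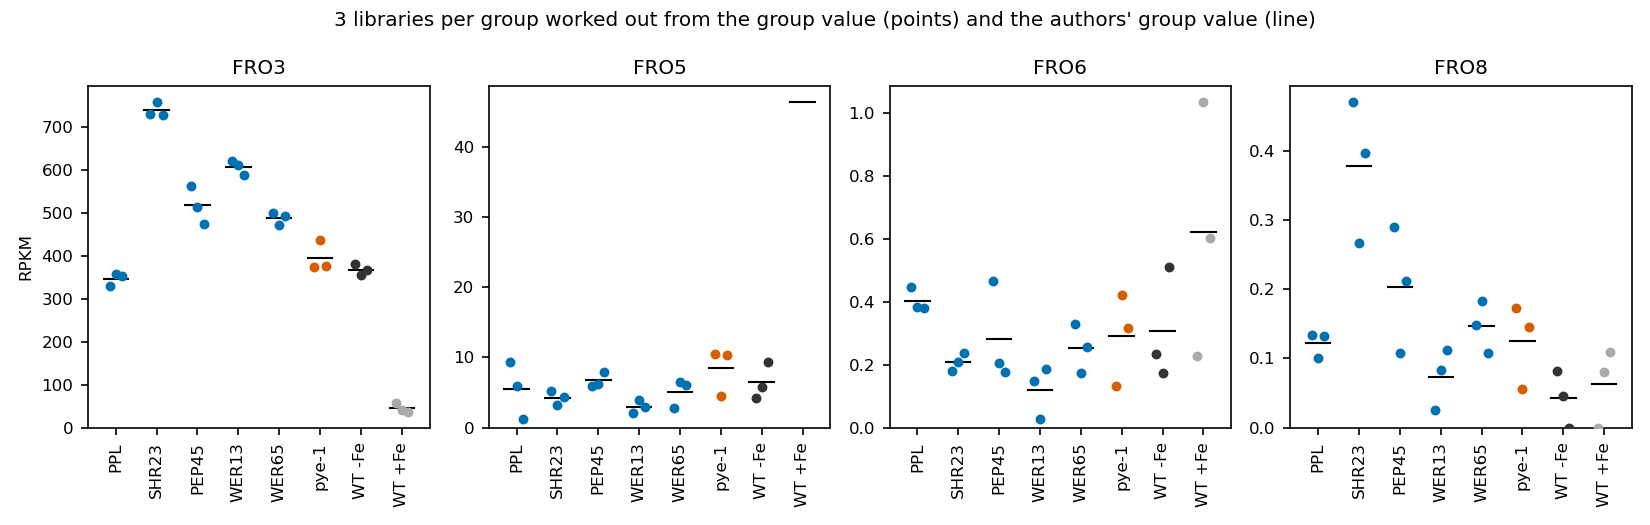
RPKM of FRO3, FRO5, FRO6 and FRO8 (y axis, linear) in the 3 reconstructed libraries of each group (points) with the authors' group value (line), for the 5 lines, pye-1, and wild type without and with iron (x axis). FRO3 lies at 726 to 758 RPKM in SHR23 and at 356 to 379 RPKM in iron-deficient wild type, while FRO5 with iron has a line but no points because its split was not unique.

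The pye-1 comparison asked what loss of PYE did to the iron-deficient root. FRO2 was the 1 member listed, against 15.5% of 24961 genes, and it fell. It had 392 RPKM in pye-1 and 1966 RPKM in iron-deficient wild type, 5.02-fold lower (q = 1.16e-06 in the authors' deposited table). FRO3, the PYE target, had 373, 375 and 436 RPKM in pye-1 libraries and 356, 367 and 379 RPKM in wild-type ones. The ranges overlapped and FRO3 was not listed. NAS4 and ZIF1, also known direct PYE targets, were not listed in pye-1 either. NAS4 had 142 RPKM in pye-1 and 119 RPKM in wild type, and ZIF1 had 194 RPKM in pye-1 and 191 RPKM in wild type.

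In pye-1 FRO2 and FRO3 were nearly equal, at a FRO2 to FRO3 ratio of 0.993, against 5.35 in iron-deficient wild type. FRO4 (47.1 RPKM in pye-1, 37.7 in wild type) and FRO5 (8.43 RPKM in pye-1, 6.45 in wild type) were not listed. The 3 pye-1 libraries held 4.45, 10.4 and 10.5 RPKM of FRO5, a wider range than the difference of the means.

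The 5 lines were each set against iron-deficient wild type, and all of these comparisons share the same 3 wild-type libraries. FRO2 was lower in all 5 by value, and it fell in SHR23, PEP45 and WER65. Its level was 1740 RPKM in PPL, 1238 in SHR23, 682 in PEP45, 1331 in WER13 and 924 in WER65, against 1966 in wild type. PEP45 was the lowest of the lines, 2.88-fold under wild type (q = 1.78e-06 in the authors' deposited table). WER65 followed at 2.13-fold (q = 3e-05 in the authors' deposited table), and SHR23 at 1.59-fold (q = 0.000114 in the authors' deposited table). WER13, at 1.48-fold, was not listed; that is under the smallest fold any of these tables lists.

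FRO3 was higher than in wild type in SHR23, PEP45, WER13 and WER65 by value and rose in SHR23 and WER13. SHR23 libraries held 726, 729 and 758 RPKM, against 356, 367 and 379 RPKM in wild type. This was 2.01-fold higher (q = 3.41e-06 in the authors' deposited table). WER13 libraries held 588, 611 and 620 RPKM, 1.65-fold higher (q = 2.59e-05 in the authors' deposited table). PEP45 (474, 513 and 563 RPKM) and WER65 (472, 493 and 500 RPKM) also lay wholly above the wild-type libraries, but at 1.41-fold and 1.33-fold they were under the smallest fold listed. PPL (330, 352 and 358 RPKM) overlapped wild type.

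The order of FRO3 over the groups was SHR23, WER13, PEP45, WER65, pye-1, iron-deficient wild type, PPL and iron-sufficient wild type. By the range of their libraries PEP45 and WER65 overlapped, as did pye-1 with iron-deficient wild type and iron-deficient wild type with PPL; the other neighbours in this order did not overlap. The order of FRO2 was iron-deficient wild type, PPL, WER13, SHR23, WER65, PEP45, pye-1 and iron-sufficient wild type. No spread is known for FRO2, so its neighbours cannot be told apart beyond the calls given.

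**Figure D3:**
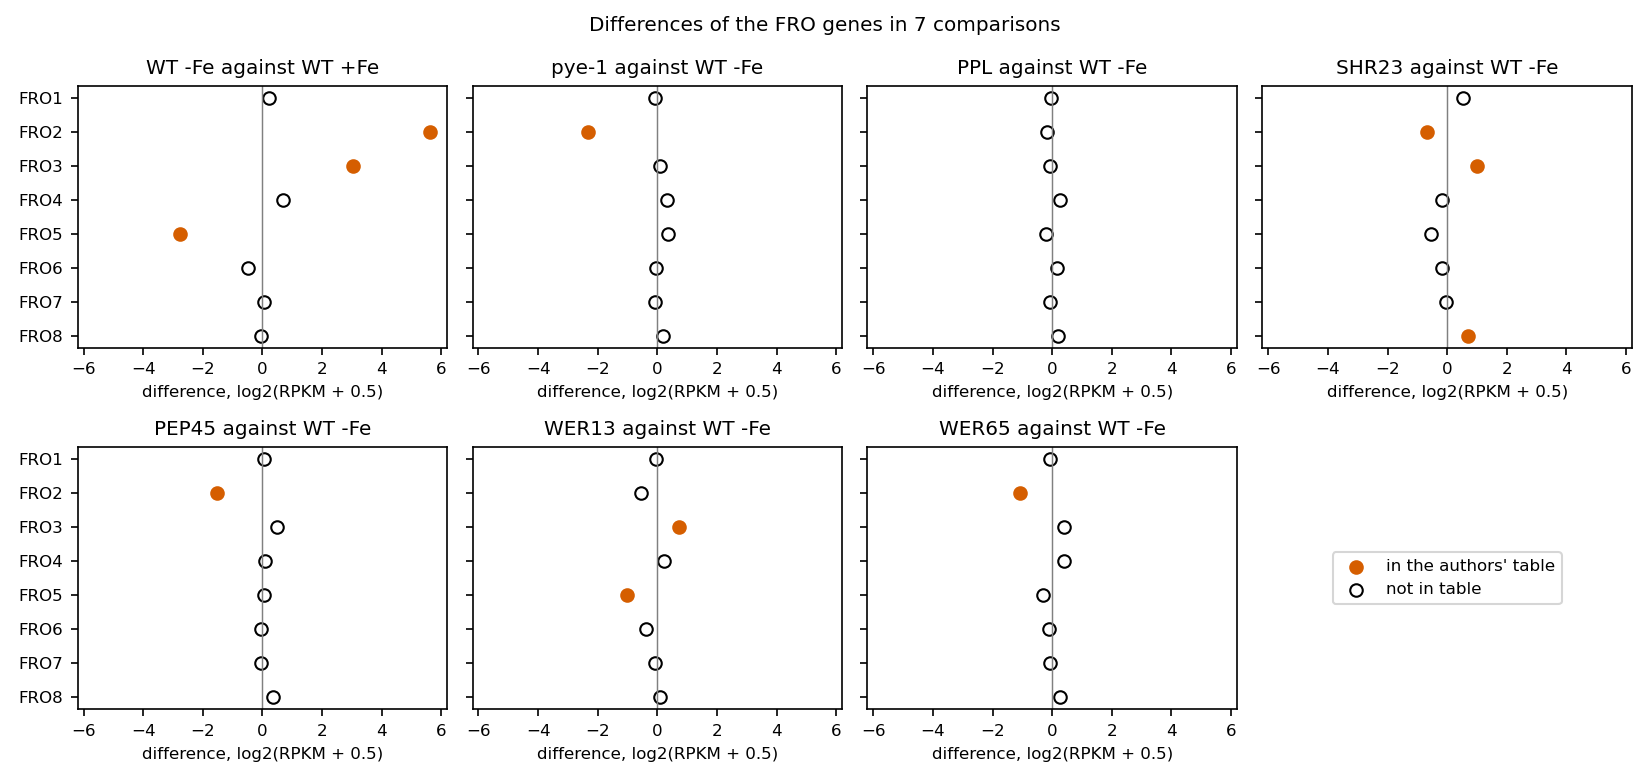
Difference of each FRO gene on the log2(RPKM + 0.5) scale (x axis) in 7 comparisons (panels), the named group minus the one it is set against; orange points are in the authors' tables and open points are not. FRO2 stands at 5.62 for iron deficiency in wild type and at -2.33 in pye-1, and no member of the family is listed in PPL.

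The remaining members added 2 calls in the lines. FRO5 fell in WER13, whose libraries held 2.0, 2.87 and 3.92 RPKM, against 4.20, 5.77 and 9.38 RPKM in wild type. The means differed 2.20-fold (q = 0.0331 in the authors' deposited table), and the highest WER13 library lay just under the lowest wild-type one. In PPL the 3 libraries of FRO5 ran between 1.26 and 9.27 RPKM, the widest relative range of this gene in any group that could be split. FRO8 rose in SHR23, where it had 20, 11 and 16 reads, against 4, 2 and 0 in wild type (q = 0.00385 in the authors' deposited table). That call rests on 47 reads in SHR23 and 6 in wild type, 0.378 and 0.0426 RPKM. FRO1 also had its most reads in SHR23 (16, 4 and 17, against 2, 4 and 3 in wild type) and was not listed.

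The family's counts in the lines are set beside the share of all detected genes listed. In SHR23 3 of 8 members were listed, against 14.8% of detected genes; in PEP45 1, against 14.8%; in WER13 2, against 19.0%; and in WER65 1, against 15.8%. In PPL no member was listed, against 0.0121% of genes, which is 3 genes in all. FRO4 was listed in none of the 7 comparisons; its level lay between 33.2 RPKM in SHR23 and 49.5 RPKM in WER65 in the groups without iron.

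Set against pye-1, a comparison with no q-values here, FRO2 was higher in all 5 lines. Its level against the 392 RPKM of pye-1 was 4.44-fold higher in PPL, 3.16-fold in SHR23, 1.74-fold in PEP45, 3.40-fold in WER13 and 2.36-fold in WER65. On log2(RPKM + 0.5), 4 lines exceeded pye-1 by at least 1, which 3.72% of 19767 kept genes did in PPL, 2.26% in SHR23, 0.809% in WER13 and 1.13% in WER65. PEP45, at 0.80, did not reach that difference, which 1.02% of genes did. FRO3 exceeded pye-1 by 0.90 in SHR23 and 0.62 in WER13, and stood at -0.19 in PPL. FRO5 was under pye-1 by more than 1 in WER13 alone, at -1.38, a difference in that direction that 1.92% of genes reached there. No p-value was computed for these differences.

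The make-up of the family's transcript changed with these levels. FRO2 made up 82.7% of the summed RPKM of the 8 genes in iron-deficient wild type and 25.6% in iron-sufficient wild type, where FRO5 (30.0%) and FRO3 (28.9%) were slightly larger and FRO4 held 15%. It made up 46.5% in pye-1, beside 46.9% for FRO3. Among the lines FRO2 held 81.4% in PPL, 61.5% in SHR23, 54.7% in PEP45, 67.1% in WER13 and 63.0% in WER65. The summed level was 842 RPKM in pye-1 and 2378 RPKM in iron-deficient wild type, and 155 RPKM in iron-sufficient wild type. Without iron FRO2 and FRO3 together accounted for 93.4% to 98.1% of the sum in every group, against 54.5% with iron.

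**Figure D4:**
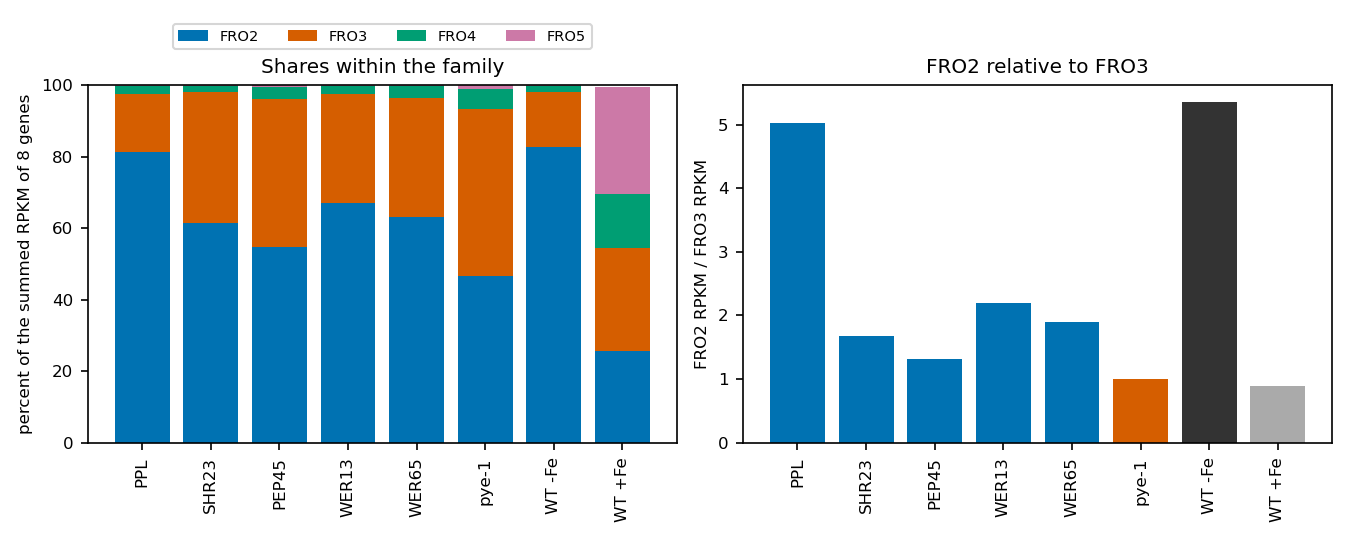
Left, percent of the summed RPKM of the 8 FRO genes held by FRO2 to FRO5 in each group; the other 4 members are too low to see. Right, FRO2 RPKM divided by FRO3 RPKM in each group, which is 5.35 in iron-deficient wild type, 5.02 in PPL, 1.32 to 2.20 in the other lines and 0.993 in pye-1.

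Genes with the most similar profile over the 8 group values were found for each member that reached 5 RPKM. These correlations describe 8 means in which iron-sufficient wild type stands far from the rest, and the 7 other groups share the same medium. FRO2 was most like AT3G61930 (r = 0.999), S8H (AT3G12900, r = 0.998), an enzyme of the coumarin pathway that makes iron-mobilizing compounds, and AT3G58060 (r = 0.996). FRO3 was most like ORG1 (r = 0.998), AT3G27590 (r = 0.998) and NET3A (r = 0.997). S8H had 107 RPKM in pye-1 and 1492 RPKM in iron-deficient wild type, a low value in pye-1 as for FRO2. ORG1 had 812 RPKM in SHR23 and 391 RPKM in iron-deficient wild type, high in SHR23 as for FRO3. These genes were picked by likeness over the same values, so the traits they share with FRO2 and FRO3 follow from that choice.

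FRO4 and FRO5 had different nearest genes. FRO4 was most like AT5G40660 (r = 0.990), AT5G16930 and AT1G67520 (r = 0.979 each). FRO5 was most like RPL27 (AT5G40950, r = 0.994), AT1G54500 (r = 0.992) and ATATH8 (r = 0.989). All of them were higher with iron than in any group without it, which follows from their choice by likeness to FRO5.

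**Figure D5:**
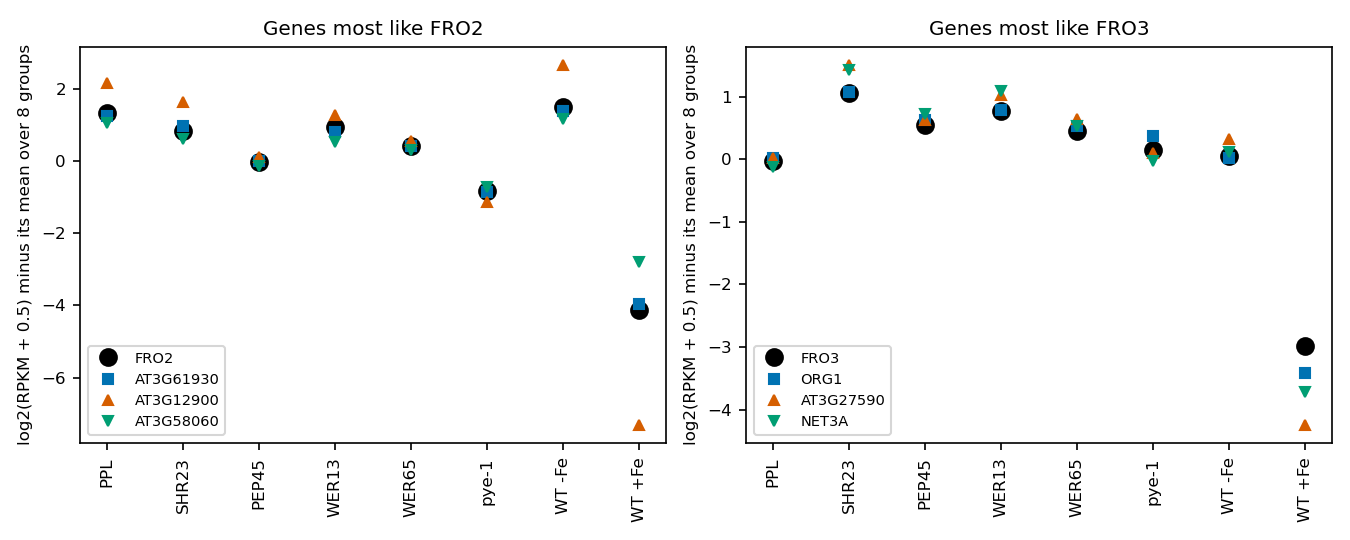
Profile of FRO2 (left) and FRO3 (right) and of the 3 genes most like each, as log2(RPKM + 0.5) minus its mean over the 8 groups (y axis), by group (x axis); black circles are the FRO genes. The FRO2 profile is low in pye-1 (392 RPKM) and the FRO3 profile peaks in SHR23 (738 RPKM).

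Other iron uptake genes, a list of 17 that leaves FRO2 out, give the setting for FRO2. This list and those that follow were chosen with earlier results of these data known, so their counts are description only. Without iron in wild type, where 17.9% of detected genes were listed, 16 of the 17 rose and none fell, with a median log2 difference of 4.29, against -0.01 over all kept genes. S8H had 1492 RPKM without iron and 0.999 RPKM with it (q = 3.75e-07 in the authors' deposited table). In pye-1, where 15.5% of detected genes were listed, 12 of 17 fell and none rose, with a median of -1.69. BGLU42, a root beta-glucosidase, was 7.78-fold lower (q = 1.16e-06 in the authors' deposited table). In SHR23, 4 rose and 9 fell, beside 14.8% of detected genes listed. FIT, the bHLH factor that activates FRO2 and IRT1, fell there to 91.7 RPKM, against 240 RPKM in wild type (q = 1.17e-06 in the authors' deposited table). This was not particular to SHR23. FIT also fell in PEP45 (75.97 RPKM), WER13 (109.4 RPKM) and WER65 (102.2 RPKM), and it stood at 62.53 RPKM in pye-1. BHLH100, a partner of FIT, rose to 1510 RPKM in SHR23, against 758 RPKM in wild type (q = 5.65e-06 in the authors' deposited table). In PEP45 11 of the 17 fell (14.8% of detected genes listed), in WER13 10 (19.0%) and in WER65 11 (15.8%), and none rose in these 3 lines. In PPL none was listed (0.0121%).

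The 3 known PYE targets taken here, FRO3 among them, all rose without iron in wild type, where 17.9% of detected genes were listed. All rose in SHR23 (14.8% of detected genes listed). In WER13 FRO3 and NAS4 rose (19.0%), and in PEP45 NAS4 alone (14.8%). None was listed in WER65 (15.8%) or PPL (0.0121%). NAS4, a nicotianamine synthase, had 262 RPKM in SHR23 and 119 RPKM in wild type (q = 2.77e-06 in the authors' deposited table). ZIF1, a vacuolar transporter, had 428 RPKM in SHR23 and 191 RPKM in wild type (q = 1.23e-05 in the authors' deposited table).

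Copper genes were taken beside FRO4 and FRO5. Of 13 measured, 2 rose and 2 fell without iron in wild type, beside 17.9% of detected genes listed; the median log2 difference was -0.22, against -0.01 over all kept genes. COPT2, a copper transporter, had 232 RPKM without iron and 99.2 RPKM with it (q = 0.000726 in the authors' deposited table). FSD1, an iron superoxide dismutase, had 23.6 RPKM without iron and 113 RPKM with it (q = 0.00116 in the authors' deposited table), and in pye-1 it rose 5.74-fold (listed at q = 2.95e-05 in the authors' deposited table). FSD1 also rose in SHR23, PEP45, WER13 and WER65, where it lay between 125.0 and 142.4 RPKM, and was not listed in PPL (17.27 RPKM). COPT2 went the other way and fell in pye-1 (93.17 RPKM), SHR23 (153.6 RPKM), PEP45 (125.8 RPKM) and WER65 (130.6 RPKM). It was not listed in WER13 (165.6 RPKM) or PPL (212.5 RPKM). In pye-1 2 of the 13 copper genes rose and 1 fell, beside 15.5% of detected genes listed. SPL7 itself had 26.4 RPKM without iron and 23.8 RPKM with it and was not listed.

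Organelle iron genes were taken beside FRO3, FRO7 and FRO8. Their counts were close to the 17.9% of detected genes listed in wild type without iron. Of 8 mitochondrial genes 1 fell, ACO3, an aconitase, with 72.2 RPKM without iron and 150 RPKM with it (q = 0.000108 in the authors' deposited table). Of 9 plastid genes 1 rose and 1 fell; SUFB, of the iron-sulphur assembly machinery, had 5.07 RPKM without iron and 42.8 RPKM with it (q = 2.94e-06 in the authors' deposited table). Both rose in pye-1: ACO3 to 226 RPKM, against 72.2 RPKM in wild type, and SUFB to 40.1 RPKM, against 5.07 RPKM in wild type. Both also rose in SHR23, PEP45, WER13 and WER65. In these lines ACO3 lay between 209.4 and 248.8 RPKM and SUFB between 35.66 and 44.55 RPKM. Neither was listed in PPL (73.34 and 3.734 RPKM).

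The RBOH oxidases, related flavocytochromes that reduce oxygen, were set beside the family as well. Of 10 measured, 5 rose without iron in wild type and none fell, where 17.9% of detected genes were listed. RBOHD had 208 RPKM without iron and 13.3 RPKM with it (q = 2.07e-06 in the authors' deposited table). In pye-1, where 15.5% of detected genes were listed, 1 rose and 5 fell, RBOHD to 108 RPKM, against 208 RPKM in wild type (q = 0.000128 in the authors' deposited table).

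Markers of cell types moved between the same groups. The 7 root hair genes summed to 79.5 RPKM in PPL, 18.8 in SHR23, 21.7 in PEP45, 22.9 in WER13, 68.1 in WER65 and 14.4 in pye-1, against 106 RPKM in iron-deficient wild type and 321 RPKM in iron-sufficient wild type. FRO2, known from the root epidermis, followed this order in part. Among the groups without iron, FRO2 and the root hair sum were both highest in wild type, then in PPL, and both lowest in pye-1. Between these the orders differed. FRO2 was higher in SHR23 and WER13 than in PEP45 at a similar sum, and lower in WER65 than in WER13 at a higher sum. In iron-sufficient wild type FRO2 was lowest and the root hair sum highest. The 2 epidermis genes, GL2 and WER, summed to 7.09 to 11 RPKM over all 8 groups, but this sum hides opposite changes. GL2 fell in pye-1 (1.925 RPKM, against 3.427 RPKM in iron-deficient wild type), SHR23, PEP45 and WER13. WER rose in SHR23 (7.601 RPKM, against 4.76 RPKM in iron-deficient wild type). Endodermis markers (7 genes) summed to 191 RPKM in PPL, 143 in SHR23, 120 in PEP45, 122 in WER13, 142 in WER65 and 97.0 in pye-1, against 218 RPKM in iron-deficient wild type and 586 RPKM in iron-sufficient wild type. Stele markers (8 genes) summed to 492 RPKM in PPL, 584 in SHR23, 497 in PEP45, 524 in WER13, 457 in WER65 and 429 in pye-1, against 519 RPKM in iron-deficient wild type and 663 RPKM in iron-sufficient wild type. SHR23, where FRO3 was highest, had the highest stele sum of the groups without iron, but 1 gene, PHO1, made up most of it. PHO1 had 396.3 RPKM in SHR23 and 277.8 RPKM in iron-deficient wild type. By value 2 of the 8 stele genes were higher in SHR23 than in iron-deficient wild type and 6 were lower. The median of the 8 stele genes was 24.5 RPKM in SHR23, against 36.2 RPKM in iron-deficient wild type. The part of these markers in the FRO levels was not tested.

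Green tissue transcripts were present as well, though the samples are labelled roots. The 19 markers summed to 26.9 RPKM in WER65, 27.8 in WER13, 57.1 in SHR23, 107 in pye-1, 131 in PPL and 425 in PEP45, against 374 in iron-deficient wild type and 361 in iron-sufficient wild type. FRO6, a leaf reductase, had 31 reads in WER65, 14 in WER13, 27 in SHR23, 48 in pye-1, 52 in PPL and 44 in PEP45, against 42 in iron-deficient wild type and 73 in iron-sufficient wild type. The 3 groups with the lowest green sums also had the fewest FRO6 reads. PPL had more FRO6 than iron-deficient wild type at a lower green sum (0.403 and 0.306 RPKM). In pye-1 FRO6 had more reads than in iron-deficient wild type, but the pye-1 libraries were larger. Scaled to library size, FRO6 stood at 0.290 RPKM in pye-1, under wild type. PEP45, with the highest green sum, was not the highest in FRO6. FRO7 had 0 reads in PPL, WER13, WER65 and pye-1 and at most 4 in any group. Whether the FRO6 reads came from green tissue was not tested.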

How the data were processed

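The members and gene lists were chosen with earlier results of these data known. Poly(A) RNA was made into directional libraries, per the labels' protocols; the submitters' processing notes name FastQC, TopHat2, edgeR and TAIR10. The authors deposited RPKM as 1 value per group, and q-values for the genes they call, by a test that is not stated. Genes kept had at least 1 RPKM in some group (19767 of 33602); 32835 identifiers matched TAIR10.1. Background shares count genes above 0 in either group. Differences on log2(RPKM + 0.5) understate changes of low genes. Named genes were the 8 members, the 3 most similar genes of each member reaching 5 RPKM, and up to 4 genes per list with the smallest q-value; SPL7, NAS4 and ZIF1 where not listed, and 4 uptake genes split by library, were named after their values were seen.

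The split into libraries was chosen after the files were seen. Steps between low values of single-exon genes gave 24 library sizes; 62.0% to 67.7% of the low values checked were whole reads at RefSeq lengths, and the others were not resolved. Gene lengths were searched, and reads were kept only where exactly 1 whole-number solution existed. On simulated reads of 4000 genes, 300 of 300 values were recovered, each at its known length. Under a narrower first tolerance fewer had a solution. Recovery with a searched length was not tested. Recovery at read numbers like those of FRO3 (4721 to 86273 reads per group) was not tested either. For FRO3, 2 lengths fitted iron-sufficient wild type, and 1, an annotated transcript length, fitted all other groups. For FRO2 the 1 length found is not annotated; it failed a first control that 1 of 100 other lengths passed, and passed after the control was redefined, when 0 of 100 others did. With that mixed outcome no FRO2 split is reported. The lengths of FRO6, FRO7 and FRO8 are not annotated either, and their reads depend on them. Splits exist for few genes, so limma, planned for values per library, was not run. Coding sequences (Biopython 1.88) replaced a planned protein comparison.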

Additional observations from a re-analysis of the deposited data

How the results depend on the processing

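Pseudocounts of 0.1 and 1 and a rescaling by the median of ratios were applied to 56 log2 differences, 168 values in all. A value counted as moved when it shifted by more than 1 SD of the reconstructed libraries or, where either group could not be split, by more than 0.25. Of these 168 values 26 moved, all of them in FRO1, FRO6, FRO7 and FRO8, and none changed the sign of a called difference; for FRO2 to FRO5 the largest shift was 0.10. With a q-value under 0.01 the members listed in WER13 came to 1 in place of 2, FRO5 being lost, and the counts in the other comparisons were unchanged. Asking for 5 RPKM in the higher group took FRO8 out of the SHR23 count, which left 2. By reads instead of RPKM, FRO2 made up 27.9% of the family in iron-sufficient wild type, in place of 25.6%. Without a filter and with a pseudocount of 1, 2 of the 3 genes most like FRO2 remained, and all 3 of those most like FRO3, FRO4 and FRO5. Leaving out each reconstructed library in turn gave 2.90 to 3.23 for FRO3 between wild type without and with iron, 0.98 to 1.03 for FRO3 in SHR23, 0.70 to 0.74 for FRO3 in WER13, -1.24 to -0.68 for FRO5 in WER13 and 0.62 to 0.78 for FRO8 in SHR23, all on the log2 scale and with no test. For FRO2 and FRO4, and for FRO5 with iron, no library could be left out. No paired analysis was possible because the deposited values are means per group and the reconstructed libraries carry no replicate number. Depth limits FRO1, FRO6, FRO7 and FRO8, which rest on 0 to 73 reads per group; these counts carry counting error only, and single reads decide their ratios.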
